A study of Homo sapiens with 12 samples.

Results

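Early-response transcription factors are encoded by genes that cells switch on quickly, and without new protein synthesis, when growth factors, stress or handling activate MAP kinase signalling. The 10 genes described here were taken by symbol as a group of known early-response factors, with earlier results of these data known: FOS, FOSB, FOSL1 and FOSL2 of the FOS family, JUN, JUNB and JUND of the JUN family, the zinc finger factor EGR1, the immediate-early nuclear factor IER2 and the stress-responsive bZIP factor ATF3. All 10 were found among the 28278 genes of the count table, and all 10 passed the filter on low counts that left 15916 genes for testing. FOS proteins pair with JUN proteins to form AP-1, a dimer that binds DNA through paired basic leucine zippers, whereas JUN proteins can also pair with each other. EGR1 and FOS are textbook targets of serum response factor, which binds the CArG box together with ERK-activated ETS-domain partners. In cultured hESCs, FGF in the medium keeps ERK signalling active in the undifferentiated state.

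The cells were WA26, a line of human embryonic stem cells (hESCs) kept on Matrigel without feeder cells. Bulk RNA was sequenced from wild type (WT) cells and from cells in which UBQLN1, a shuttle factor that carries ubiquitinated proteins to the proteasome, was knocked out (KO) with CRISPR/Cas9. WT cells and KO cells at normal O2, with no treatment named, made up 2 of the 4 groups of 2 libraries. The others were KO cells at 5% O2 and KO cells given the antioxidant N-acetylcysteine (NAC). The comparisons ask whether losing UBQLN1 shifted these genes and whether NAC or low oxygen shifted them in KO cells. Both treated groups carried the KO, and no treated WT library was analysed here, so a treatment could be compared in KO cells only. The p-values measure the spread between these libraries, which may be technical or clonal. The labels name neither the clone behind each library nor the dose or length of the treatments. They also give no vehicle for NAC and no O2 level for its libraries. For its NAC treatment the paper describes a DMSO control and a run of passages. For 5% O2 its text describes RNA-seq after hours of culture, while a figure legend gives a run of passages for both treatments. Vehicle, passage and time in culture may thus differ between NAC and the other groups, and cannot be told apart from NAC here. The 3 main comparisons share the KO libraries at normal O2.

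UBQLN1 had 221 and 197 CPM (counts per 1000000 counts of the scaled library total) in the WT libraries and between 42.3 and 62.4 CPM in the 6 KO libraries, a log2 fold change of -2.29 (SE 0.12, adjusted p = 2.52e-06, edgeR) between KO and WT at normal O2. Library totals ran from 31236968 to 41639350 counts. All 10 hESC markers (among them POU5F1, NANOG and SOX2) were above 1 CPM in all 8 libraries, with sums of 5480 to 6570 CPM. The NAC library of replicate 1 stood apart: 12 of 12 fibroblast and mesenchymal markers had counts in it, 11 of them at 1 CPM or more, and they summed to 1060 CPM against 516 to 631 CPM in the other 7 libraries. COL3A1, LUM, DCN and PRRX1, which mark fibroblasts, were at 0 in the second NAC library and in the KO libraries at normal O2. Several results that involve NAC are therefore also given without that library, and the part of those markers in the results was not tested. In bulk RNA, fewer cells expressing a gene and less RNA per cell cannot be told apart.

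The sequences just before the start sites of EGR1, FOS, JUN and JUND are shown because these are, with IER2, the members whose levels lay higher in both KO libraries than in both WT libraries with an unadjusted p under 0.05, and because CArG boxes and CRE-like sites are the elements through which such genes are known to be switched on. Each stretch runs from 210 to 11 bases before the RefSeq start of the gene in GRCh38.p14, 5' to 3' on the gene's own strand. Capitals mark CArG boxes and every TGACG on either strand (CGTCA where it lies on the opposite strand), the core of a cAMP response element (CRE). The windows are chr5:138465269-138465468 on the plus strand for EGR1, chr14:75278618-75278817 on the plus strand for FOS, chr1:58784058-58784257 on the minus strand for JUN and chr19:18281633-18281832 on the minus strand for JUND, and none of them overlaps an annotated GENCODE exon. IER2 and FOSL2, on which several results turn, lie on the plus strand of GRCh38 at chr19:13150411-13154911 (2 exons) and chr2:28392448-28417317 (4 exons), and their windows are not shown since annotated exons overlap them.
EGR1: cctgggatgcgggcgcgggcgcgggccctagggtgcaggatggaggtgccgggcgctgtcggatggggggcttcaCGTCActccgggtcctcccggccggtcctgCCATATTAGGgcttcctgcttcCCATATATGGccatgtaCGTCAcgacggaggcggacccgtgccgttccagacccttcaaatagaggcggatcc
FOS: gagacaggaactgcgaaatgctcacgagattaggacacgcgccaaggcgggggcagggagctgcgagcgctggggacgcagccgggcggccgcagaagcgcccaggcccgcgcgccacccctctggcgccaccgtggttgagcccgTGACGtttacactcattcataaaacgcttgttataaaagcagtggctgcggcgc
JUN: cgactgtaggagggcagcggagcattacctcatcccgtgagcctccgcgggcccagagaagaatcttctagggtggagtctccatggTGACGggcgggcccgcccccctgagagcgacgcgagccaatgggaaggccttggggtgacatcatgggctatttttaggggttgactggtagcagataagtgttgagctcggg
JUND: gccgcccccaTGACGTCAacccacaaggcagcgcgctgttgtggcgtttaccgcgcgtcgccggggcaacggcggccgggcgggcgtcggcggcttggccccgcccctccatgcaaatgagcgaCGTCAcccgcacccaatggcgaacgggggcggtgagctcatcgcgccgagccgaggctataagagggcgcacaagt

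RefSeq promoters, from 250 bases before to 50 bases after the start, were matched for 9 of the 10 members, and FOSL1 had no entry. EGR1 was the member of these 9 with CArG boxes, CCATATTAGG beginning at -105 and CCATATATGG at -83, whereas 1.29% of all 27305 promoters held at least 1 such box and 0.033% held at least 2. The TGACG core was in 8 of the 9 promoters (25% of all promoters), and the full palindrome TGACGTCA, which contains that core on both strands, was in that of JUND alone, at -200 (1.98% of all). The AP-1 element TGANTCA was found for FOSL2, at position 4 after the start (7.76% of all), and the EGR element GCGGGGGCG in none of the 9 (5.02% of all). Both strands were searched, a match is a description of letters in the window, and elements farther upstream were not searched. Matches had to fit these patterns exactly, so near variants, such as tgacatca in the JUN window, were neither marked nor counted.

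Divided by transcript length, the members spanned a wide range, and IER2 and the JUN family made up most of it. Mean levels over the 8 libraries, in CPM per kb of transcript, were 96.3 for IER2, 45.9 for JUND, 11.1 for ATF3, 5.28 for JUNB, 4.47 for JUN, 3.86 for FOS, 1.81 for FOSL1, 1.14 for FOSL2, 1.08 for EGR1 and 0.119 for FOSB. IER2 stood at percentile 94.7 of the 15501 tested genes with a known length, JUND at 89.1 and FOS at 44.5. The ranges over libraries did not overlap between IER2 and JUND, JUND and ATF3, ATF3 and JUNB, FOS and FOSL1, or EGR1 and FOSB. They overlapped between JUNB and JUN (4.09 to 6.66 and 3.1 to 5.49), between JUN and FOS, between FOSL1 and FOSL2, and between FOSL2 and EGR1, so the order of those neighbours is not set by these libraries. FOSB, whose counts were 8 to 40 per library, was close to the lower limit of what could be measured.

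**Figure D1:**
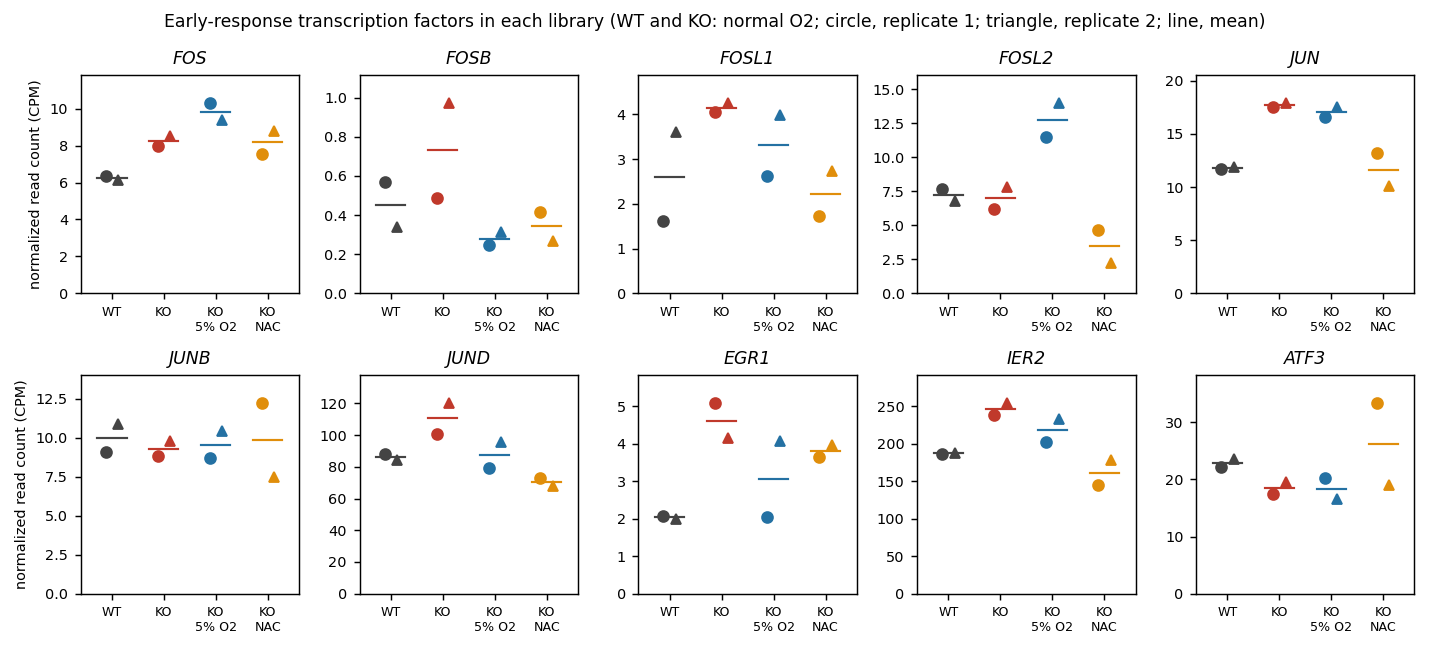
Normalized read count (CPM, vertical axis from 0, a separate scale for each gene) of the 10 members in each of the 8 libraries; WT and KO are at normal O2, circles are replicate 1, triangles replicate 2 and lines the mean of 2. FOSL2 is highest in both 5% O2 libraries (11.5 and 14 CPM) and lowest in both NAC libraries (4.67 and 2.27 CPM), EGR1 is about 2 CPM in both WT libraries, and the 2 NAC libraries lie far apart for ATF3 (33.3 and 19 CPM).

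In KO against WT cells at normal O2, none of the 10 members passed an adjusted p of 0.05 in edgeR's quasi-likelihood test, where 1.96% of all tested genes did. At an unadjusted p under 0.05, 5 members passed, FOS, JUN, JUND, EGR1 and IER2, all with higher values in KO, while 9.5% of all genes passed on the higher side and 8.12% on the lower side. The groups did not overlap, with KO higher, for 6 members (27.7% of all genes). KO was lower without overlap for ATF3 (27% of all genes). The median log2 fold change of the 10 was 0.40, beside 0 over all tested genes. The adjusted call depended on which libraries set the spread: with the first NAC library left out of the fit, which takes no part in this comparison, JUN, JUND, EGR1 and IER2 were called higher and 7.98% of all genes were called. With the second NAC library left out JUN, EGR1 and IER2 were called (7.86% of all genes). In a fit of only the WT and KO libraries at normal O2, JUN, JUND, EGR1 and IER2 were called among 7.24% of all genes. DESeq2 called JUN, EGR1 and IER2 (5.4% of all genes). None was called with other scalings of the counts in edgeR (1.93% and 1.66% of all genes). With a trend on transcript length and GC content removed, edgeR called none either, where 1.21% of all genes were called. The adjusted p was then 0.118 for JUN, 0.261 for JUND, 0.118 for EGR1 and 0.103 for IER2. Fold changes here ran with length and GC content (Spearman coefficients 0.22 and 0.14 across 15501 genes).

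EGR1, a zinc finger activator that growth signals induce, had the largest difference of the members between KO and WT. Its levels were 2.07 and 2 CPM in WT and 5.07 and 4.15 CPM in KO cells at normal O2, from 69 to 187 counts per library. Both KO libraries thus had more than both WT libraries, with a log2 fold change of 1.18 (SE 0.32, 95% interval 0.49 to 1.87, adjusted p = 0.0838). By the rule of an absolute log2 fold change over 1 with an unadjusted p under 0.05, EGR1 alone among the members passed, as did 2.57% of all genes. Over the alternatives with an adjusted p its log2 fold change lay between 1.03 and 1.32. At 5% O2 its libraries read 2.04 and 4.08 CPM, one at the WT level and the other near KO cells at normal O2, so that the fold change against KO at normal O2 was -0.60 (SE 0.31, adjusted p = 0.257) and read -1.18 without the second of these libraries and -0.17 without the first. With NAC the levels were 3.65 and 3.97 CPM, below both KO libraries at normal O2 (log2 fold change -0.27, SE 0.31, adjusted p = 0.507) and above both WT libraries. Against WT, EGR1 was called higher (0.91, SE 0.32, adjusted p = 0.0414), as were 20.6% of all genes. That call was lost when either WT library, either KO library at normal O2 or the second NAC library was left out. The log2 fold change then lay between 0.84 and 0.93. Upper quartile scaling of the counts in edgeR also lost the call (0.86, adjusted p = 0.0524).

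IER2, an immediate-early gene whose product enters the nucleus, was the most abundant member and differed between KO and WT by a smaller factor. It measured 187 and 188 CPM in WT and 238 and 254 CPM in KO cells at normal O2 (log2 fold change 0.39, SE 0.11, adjusted p = 0.0908). With NAC it fell to 145 and 178 CPM, below both KO libraries and both WT libraries, with a log2 fold change of -0.61 against KO (SE 0.11, 95% interval -0.84 to -0.37, adjusted p = 0.000754). At 5% O2 the libraries read 203 and 233 CPM, both under the KO libraries at normal O2 (-0.18, SE 0.11, adjusted p = 0.344). The decrease with NAC was called in all 17 alternatives with an adjusted p, with log2 fold changes of -0.76 to -0.29. NAC was also lower than 5% O2 (-0.43, SE 0.11, adjusted p = 0.0117). That call was lost without the second 5% O2 library (-0.33) and with a trend on transcript length and GC content removed (-0.25, adjusted p = 0.0885). The counting ignored strand, and exons of 2 lncRNAs on the opposite strand share 946 and 662 of the 3079 exon bases of IER2.

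JUN, the partner through which FOS proteins bind DNA, had replicates within 0.084 log2 units of each other except with NAC, where the gap was 0.39. In WT it read 11.7 and 11.9 CPM and in KO cells at normal O2 17.5 and 17.9 CPM, a log2 fold change of 0.58 (SE 0.15, 95% interval 0.25 to 0.91, adjusted p = 0.0765). At 5% O2 it read 16.6 and 17.5 CPM, overlapping KO at normal O2 (-0.05, 95% interval -0.38 to 0.27). With NAC it fell to 13.2 and 10.1 CPM (-0.60, SE 0.15, adjusted p = 0.00682 against KO), and these libraries lay on either side of both WT libraries. The difference from KO was -0.81 without the first NAC library and -0.42 without the second. NAC was also below 5% O2 (-0.55, SE 0.15, adjusted p = 0.019). That call was lost without either 5% O2 library (-0.59 and -0.51) or the second NAC library (-0.37). It was also lost in the fit of the compared libraries (adjusted p = 0.0557) and with a trend on transcript length and GC content removed (-0.37, adjusted p = 0.113).

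JUND, the JUN protein with the steadiest expression in resting cells, supplied 77.9 to 85.2% of the family's summed level per kb in every library. It read 88.3 and 84.5 CPM in WT and 101 and 120 CPM in KO at normal O2 (log2 fold change 0.36, SE 0.11, adjusted p = 0.131), so both KO libraries were higher. With NAC it fell to 72.8 and 67.7 CPM, below all 6 other libraries (-0.66 against KO, SE 0.11, adjusted p = 0.000659). At 5% O2 it had 79.1 and 95.4 CPM, under both KO libraries at normal O2 (-0.34, SE 0.11, adjusted p = 0.0851) and on either side of WT. JUND is also the member with the most GC-rich transcript, 69.9% GC, above 99.5% of the tested genes.

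JUNB, an AP-1 subunit that can restrain JUN, showed no ordering of groups. Its levels were 9.11 and 10.9 CPM in WT, 8.84 and 9.76 in KO at normal O2, 8.68 and 10.4 at 5% O2 and 12.2 and 7.48 with NAC, so every pair of groups overlapped. The intervals of the log2 difference were -0.59 to 0.38 for KO against WT and -0.40 to 0.57 for NAC against KO. The higher of the NAC values came from the library with fibroblast markers, and without it the NAC difference was -0.32 in place of 0.08. HOOK2, a neighbour on the opposite strand, shares 259 of its 1830 exon bases, and default counting leaves out reads that fall on both genes.

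FOS, the archetypal immediate-early gene, was lowest in WT. Its levels were 6.35 and 6.12 CPM in WT, 7.99 and 8.5 CPM in KO at normal O2, 10.3 and 9.38 CPM at 5% O2 and 7.57 and 8.78 CPM with NAC, and all 6 KO libraries were above both WT libraries. The log2 fold change between KO and WT at normal O2 was 0.40 (SE 0.17, adjusted p = 0.243) and that between 5% O2 and WT 0.66 (SE 0.17, adjusted p = 0.0573, and called in 5 of 17 alternatives, with either NAC library left out among them). Between NAC and KO at normal O2 the difference was -0.01 (95% interval -0.38 to 0.35), in contrast to JUN, JUND and IER2, although these differences were not tested against each other.

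FOSL2, which encodes FRA2, was the member that differed most between low oxygen and NAC, a comparison in which JUN and IER2 were also called. It had 7.7 and 6.79 CPM in WT and 6.23 and 7.8 CPM in KO at normal O2, overlapping groups with a log2 difference of -0.05 (95% interval -0.64 to 0.55). At 5% O2 it had 11.5 and 14 CPM, above all other libraries (0.86 against KO, SE 0.27, 95% interval 0.27 to 1.46, adjusted p = 0.0728). With NAC it fell to 4.67 and 2.27 CPM, below all other libraries (-1.0 against KO, SE 0.28, adjusted p = 0.0127, and -1.05 against WT, SE 0.28, adjusted p = 0.0126). The NAC libraries differed enough to set the size: the value was -1.63 against KO and -1.67 against WT without the first of them, and -0.59 and -0.63 without the second. The call against KO was lost without the second KO library at normal O2 (-0.83, adjusted p = 0.0984), in the fit of the compared libraries (0.0522) and with a trend on transcript length and GC content removed (-0.42, adjusted p = 0.313). The call against WT was lost without the first WT library (-0.96, adjusted p = 0.0797), in the fit of the compared libraries (0.0529) and with that trend removed (-0.62, adjusted p = 0.157). The replicate gap within NAC was itself about 1 log2 unit. Set directly against each other, NAC was lower than 5% O2 by a log2 fold change of -1.86 (SE 0.28, 95% interval -2.49 to -1.24, adjusted p = 0.00102). That difference was called in all 17 alternatives with an adjusted p, at -2.49 to -1.45. As a share of the FOS family per kb, FOSL2 made up 20.9 and 23.3% at 5% O2 and 12.8 and 5.46% with NAC. The WT libraries read 21.8 and 16.5%, and the KO libraries at normal O2 read 12.8 and 14.6%. The share in the first NAC library was thus that of the first KO library.

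FOSL1, which encodes FRA1, and FOSB had wide replicate spread. FOSL1 read 1.62 and 3.6 CPM in WT, 4.04 and 4.25 in KO at normal O2, 2.62 and 3.99 at 5% O2 and 1.72 and 2.74 with NAC. Both KO libraries at normal O2 were above all others, but the difference from WT, 0.66 (SE 0.38, adjusted p = 0.392, and 0.20 or 1.36 without the first or the second WT library), and from NAC, -0.90 (SE 0.38, adjusted p = 0.0753), missed the threshold. The NAC difference passed the threshold in 6 of 17 alternatives, DESeq2 among them. It missed the threshold once the length and GC trend was taken out (-0.80, adjusted p = 0.141). Its size depended on the NAC library kept. The difference was -0.60 without the first, the library with fibroblast markers, and -1.26 without the second. FOSB read 0.569 and 0.337 CPM in WT, 0.488 and 0.972 in KO at normal O2, 0.245 and 0.312 at 5% O2 and 0.418 and 0.267 with NAC, with a log2 difference of -1.39 (95% interval -2.79 to 0.00, adjusted p = 0.203) between 5% O2 and KO. At counts this low a change of that size could not be separated from replicate spread.

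ATF3, a bZIP factor that the integrated stress response induces, had the opposite sign to most members between KO and WT. It read 22.1 and 23.6 CPM in WT and 17.5 and 19.6 CPM in KO at normal O2, both lower (log2 fold change -0.30, SE 0.21, adjusted p = 0.496). At 5% O2 it had 20.2 and 16.5 CPM, around KO at normal O2. With NAC the libraries read 33.3 and 19 CPM, and the fold change against KO of 0.50 (SE 0.21, adjusted p = 0.0776) was 0.03 without the first of them, the library with fibroblast markers, and 0.85 and past the threshold without the second.

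**Figure D2:**
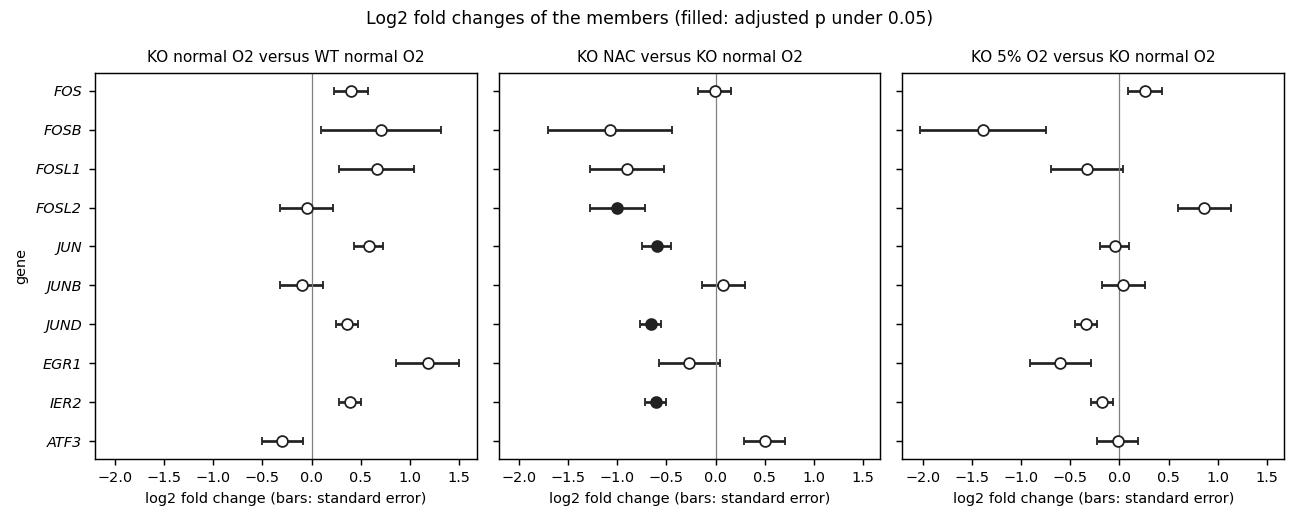
Log2 fold change (horizontal axis, bars are standard errors of the fit) of each member in the 3 main comparisons, filled where the adjusted p was under 0.05. Filled points appear only for NAC against KO, at FOSL2 (-1.0), JUN (-0.60), JUND (-0.66) and IER2 (-0.61), while KO against WT has its largest value at EGR1 (1.18).

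Counted over the members, NAC against KO at normal O2 gave 4 called lower (FOSL2, JUN, JUND and IER2) and 0 higher, where 44.6% of all tested genes were called, 20.8% lower and 23.8% higher. For 7 members both NAC libraries were below both KO libraries (34% of all genes), and the median of the 10 was -0.60 beside 0.02 over all genes. Without the first NAC library the same 4 were called, where 19.7% of all genes were called lower. Fold changes in this comparison ran with transcript composition: across 15501 genes, which are not independent replicates, the Spearman coefficient was -0.49 with GC content and -0.24 with length. The members' transcripts lay between percentiles 54.2 (ATF3) and 99.5 (JUND) of GC content. With the trend on length and GC removed, IER2 was the 1 member called (-0.29, adjusted p = 0.0393), where 10.9% of all genes were called lower, close to the 1 in 10 members. JUND went to -0.14, JUN to -0.30 and FOSL2 to -0.42.

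At 5% O2 against KO at normal O2, 0 members were called by the adjusted p in edgeR, against 7.81% of all tested genes, and 2 members, FOSL2 on the higher and JUND on the lower side, passed an unadjusted p under 0.05 (12.4% of all genes on each side). Both 5% O2 libraries were above both KO libraries for 2 members (30.7% of all genes) and below for 5 (30.3%). DESeq2 called FOSL2 higher and JUND lower, among 13.5% of all genes, and so did the fits without the first or the second NAC library (16.8% and 16.5% of all genes). Fold changes ran with GC content here too (Spearman coefficient -0.33 across 15501 genes). With the trend on length and GC removed JUND stood at -0.14 (adjusted p = 0.546) and FOSL2 at 1.12 (adjusted p = 0.074). In NAC against 5% O2, FOSL2, JUN and IER2 were called lower, where 13.6% of all genes were, and with the trend on length and GC removed FOSL2 was still called (-1.54, adjusted p = 0.00641), where 7.82% of all genes were called lower. Without the second 5% O2 library, FOSL2 was the 1 member called (4.31% of all genes called lower). Against WT, 5% O2 gave 0 members called in edgeR (3.27% of all genes) and FOS, FOSL2 and JUN higher at an unadjusted p under 0.05 (10% of all genes) and in DESeq2 (3.39% of all genes higher). NAC against WT gave EGR1 higher and FOSL2 lower, where 38.2% of all genes were called, 20.6% higher and 17.6% lower.

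**Figure D3:**
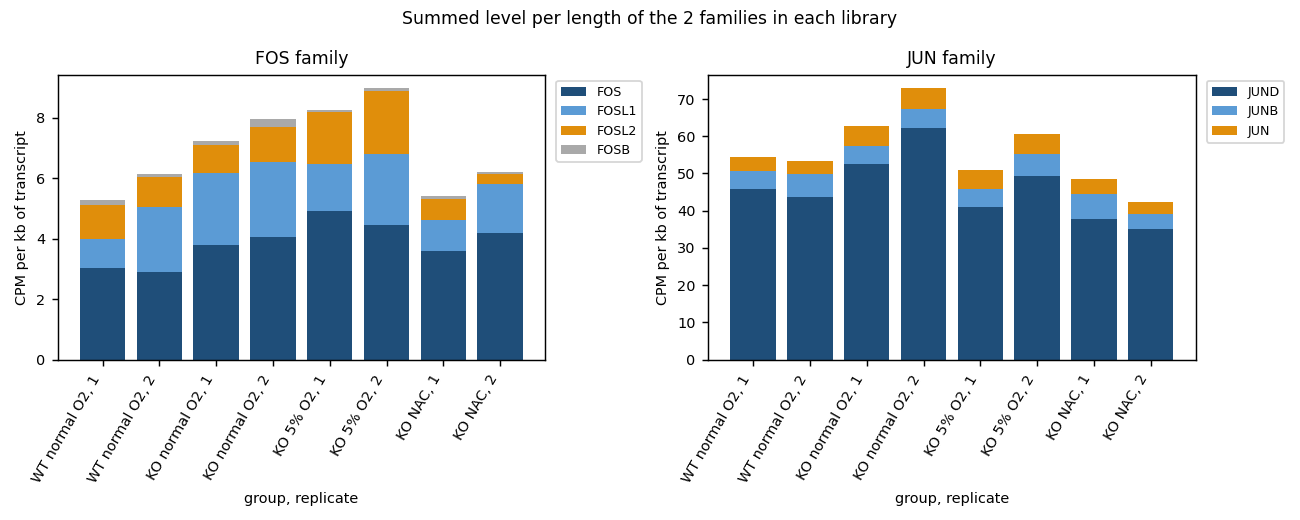
Stacked level per length (CPM per kb of transcript, vertical axis from 0) of the FOS family (left) and the JUN family (right) in each of the 8 libraries. The FOS family sum is highest at 5% O2 (8.23 and 8.97), the JUN family sum is highest in KO at normal O2 (62.8 and 73) and lowest with NAC (48.4 and 42.3), and JUND fills most of every JUN column.

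Summed per kb, the JUN family exceeded the FOS family in every library. The FOS family sum, in CPM per kb of transcript, was 5.27 and 6.13 in WT, 7.23 and 7.96 in KO at normal O2, 8.23 and 8.97 at 5% O2 and 5.42 and 6.19 with NAC. The JUN family sum was 54.3 and 53.4 in WT, 62.8 and 73 in KO at normal O2, 50.9 and 60.5 at 5% O2 and 48.4 and 42.3 with NAC. Both sums were thus higher in both KO libraries at normal O2 than in both WT libraries and both NAC libraries, while 5% O2 had the highest FOS sums. The ratio of the JUN to the FOS sum was 6.18 and 6.75 at 5% O2, below the other libraries (6.83 to 10.3). The NAC libraries read 8.94 and 6.83, a wider gap than that between 6.75 and 6.83. The difference in the ratio was not tested.

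**Figure D4:**
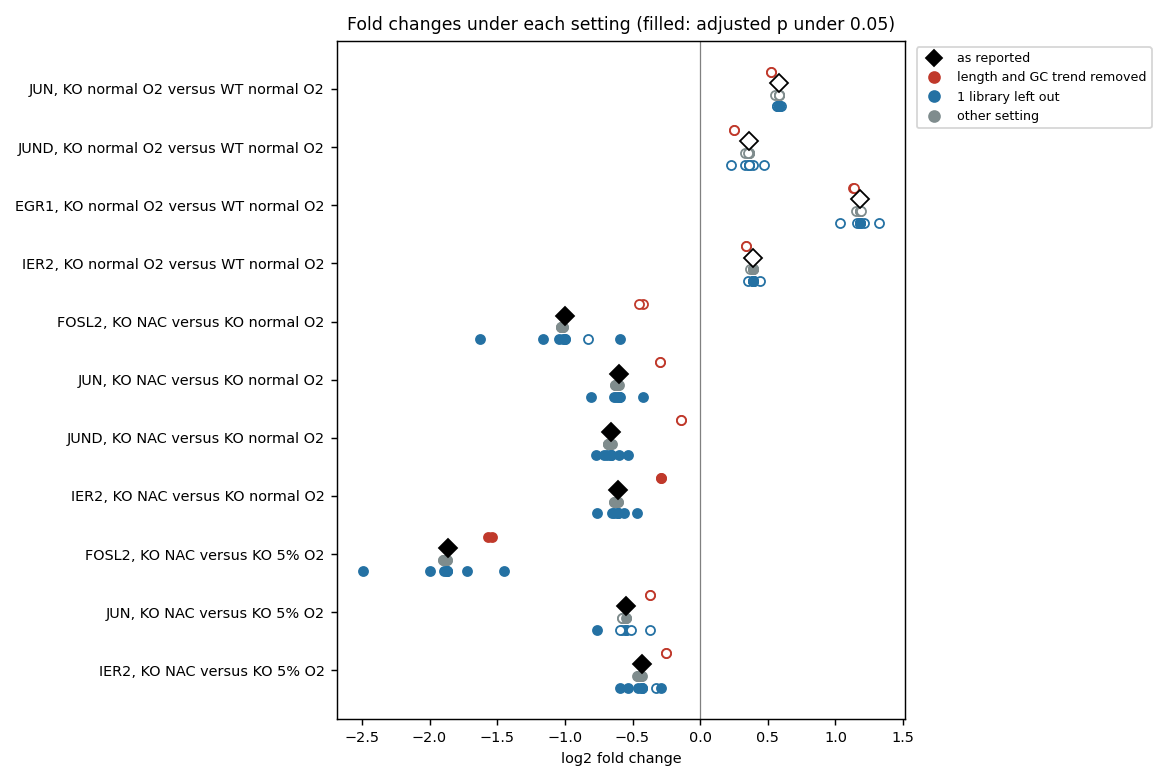
Log2 fold change (horizontal axis) of selected members and comparisons as reported (black diamond), with the trend on length and GC removed (red), with 1 library left out (blue) and under the other settings (grey), filled where the adjusted p was under 0.05. FOSL2 in NAC against 5% O2 and IER2 in NAC against KO are filled throughout, while JUND in NAC against KO moves from -0.66 to -0.14 when the trend is removed.

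The companions of these factors were counted in lists of known members. The counts with NAC are to be read against the 20.8% and 23.8% of all genes called lower and higher there, or 10.9% and 13.7% with the trend on length and GC removed. Of 32 other immediate-early genes tested, 1 was called higher and 2 lower in KO against WT. ARC, a synaptic plasticity gene that activity induces, was 43.5 ± 1.83 CPM in KO and 15.4 ± 1.10 in WT (SD, n = 2, log2 fold change 1.5, adjusted p = 0.000518). By contrast, CCN2 (14.4 ± 1.38 against 40.8 ± 1.18 CPM, SD, n = 2, -1.5, adjusted p = 7.33e-05) and CCN1 (-0.67, adjusted p = 0.00769, up to 0.15 without the second WT library or either KO library), matricellular genes known as YAP and SRF targets, were lower. CCN2 was higher again with NAC (0.93, adjusted p = 0.000108) and at 5% O2 (0.58, adjusted p = 0.0208) than in KO at normal O2, with 27.5 and 21.7 CPM on average, below WT in both. At 5% O2, 5 of the 32 were called higher and 0 lower (3.68% and 4.13% of all genes, with 8 and 5 at an unadjusted p under 0.05, and 5 and 2 by DESeq2), among them HES1, a Notch target (0.67, adjusted p = 0.0105), and PHLDA1 (0.58, adjusted p = 0.0245). None of the 32 was called in edgeR once any 1 of the KO libraries at normal or 5% O2 was left out. With NAC, 4 were called higher and 9 lower, including the pluripotency-associated factor KLF4 (-1.06, adjusted p = 0.0101) and ZFP36L2, an mRNA decay factor (-1.01, adjusted p = 3.73e-05). With the trend removed, 2 were higher and 3 lower. KLF4 was then not called (-0.81, adjusted p = 0.0572), nor without the second KO library at normal O2 (-0.84, adjusted p = 0.0996). Without the first NAC library it read -1.59. The list's median was 0.19 in KO against WT, -0.23 with NAC and 0.02 at 5% O2. The NAC median was -0.35 without the first NAC library and -0.16 with the trend removed. EGR3 and EGR4 did not pass the filter.

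Upstream of these factors lie serum response factor and the MAP kinases. Of 6 genes of the serum response factor arm, 0 were called in KO against WT by edgeR (1 at an unadjusted p under 0.05 and 1 by DESeq2), and 4 were called lower with NAC, with a median of -0.51: SRF itself (-0.65, adjusted p = 9.93e-05) and its coactivators MRTFA (-0.85, adjusted p = 9e-05) and MRTFB (-0.86, adjusted p = 0.00029) were among them. With the trend removed, 1 of the 6 was called lower, and SRF stood at -0.05 and MRTFA at -0.20. Of 21 MAP kinase genes, 0 were called in KO against WT by edgeR (4 at an unadjusted p under 0.05 and 1 by DESeq2). At 5% O2, 2 of them were called lower (4.13% of all genes), RPS6KA2 (-0.41, adjusted p = 0.0261) and MAP2K2 (-0.40, adjusted p = 0.0469). Neither was called with the trend removed (-0.17 and -0.26, adjusted p of 0.335 and 0.105) or without any 1 of the KO libraries at normal or 5% O2. With NAC 3 were called higher and 7 lower (median -0.15), or 2 and 2 with the trend removed (median -0.08). Together these 10 are close to the 44.6% of all genes called there. Among them, MAP2K2, the ERK kinase MEK2, was 133 ± 0.85 against 228 ± 26.4 CPM (SD, n = 2, log2 fold change -0.78, adjusted p = 0.000153, -0.45 with the trend removed). Of 12 EGR corepressors and ERK feedback genes, 1 was called higher in KO against WT by edgeR. At an unadjusted p under 0.05, 4 were higher (9.5% of all genes), and DESeq2 called 3 higher (3.42%), with 0 lower by either. With NAC, 3 were called higher and 7 lower (median -0.40), or 2 higher and 7 lower with the trend removed (median -0.31). SPRY4, an ERK-induced inhibitor of the pathway, was called higher in KO than in WT (270 ± 5.98 against 210 ± 3.67 CPM, SD, n = 2, 0.36, adjusted p = 0.0396) and lower than KO with NAC (-0.70, adjusted p = 3.99e-05, -0.33 with the trend removed) and at 5% O2 (-0.30, adjusted p = 0.0383). The calls of SPRY4 against WT and at 5% O2 were lost with the trend removed (0.26 and -0.15, adjusted p of 0.0901 and 0.298). They were also lost without any 1 of the 6 libraries other than those with NAC (adjusted p of up to 0.372 and 0.3). DUSP5, an ERK phosphatase, also fell with NAC (-0.71, adjusted p = 0.000291), and DUSP4 rose at 5% O2 (0.41, adjusted p = 0.0432, up to 0.31 without any 1 of the WT or KO libraries other than those with NAC).

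Among 13 other bZIP partners, 0 were called in KO against WT by edgeR (1 at an unadjusted p under 0.05 and 0 by DESeq2), and 1 was called higher and 5 lower with NAC (median -0.49), where the small MAF factor MAFK (-1.01, adjusted p = 0.000243), MAFA (-1.38, adjusted p = 7.51e-05) and ATF7 (-0.82, adjusted p = 0.0025) fell. With the trend removed 1 was higher and 2 lower (median -0.16). MAFA then stood at -0.80, MAFK at -0.45, and ATF7 was no longer called (-0.46, adjusted p = 0.0622). Without the first NAC library 2 were higher and 7 lower (median -0.84). MAFG was the 1 gene of this list called at 5% O2 (-0.51, adjusted p = 0.0233). It was not called with the trend removed (-0.26, adjusted p = 0.224) or without any 1 of the KO libraries at normal or 5% O2 (adjusted p of up to 0.278). Of 15 known AP-1 target genes tested, CCND1, the G1 cyclin, was called higher in KO than in WT (440 ± 4.29 against 303 ± 18.8 CPM, SD, n = 2, 0.54, adjusted p = 0.00713, up to 0.117 without the second WT library or either KO library) and lower with NAC (-0.77, adjusted p = 3.44e-05, -0.55 with the trend removed). MMP9 (-1.51, adjusted p = 0.00511) and HMOX1, the inducible haem oxygenase (-0.53, adjusted p = 0.0133), were the other 2 called lower with NAC. HMOX1 was not called without the first NAC library (-0.34, adjusted p = 0.0803) or the second KO library at normal O2 (adjusted p = 0.0978). At 5% O2 edgeR and DESeq2 called 0 of the 15 (2 at an unadjusted p under 0.05). In KO against WT, 4 of the 15 were higher at an unadjusted p under 0.05 and 2 by DESeq2, with 0 lower by either. The medians of these targets were 0.02 in KO against WT and -0.08 with NAC. The latter was 0.04 with the trend removed and -0.34 without the first NAC library. MMP1, MMP3, MMP10, AREG and EREG did not pass the filter. Of 12 stress partners of ATF3, 6 were called higher and 0 lower with NAC (median 0.35), and 2 higher and 1 lower without the first NAC library (median 0.01): VLDLR went from 1.29 (adjusted p = 0.0181) to 0.10, and DDIT3, the stress factor CHOP, from 1.06 (adjusted p = 0.0362) to 0.53. With either KO library at normal O2 left out, VLDLR (adjusted p of 0.0945 and 0.088) and DDIT3 (0.0734 and 0.211) were not called. DDIT3 was not called either without any 1 of the WT or 5% O2 libraries (0.0504 to 0.0585) or with the trend removed (0.69, adjusted p = 0.2).

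The genes whose profile over the 8 libraries was most like that of a member were found by the root mean square distance between centred log2 CPM profiles, over 12271 genes. For FOS they were BMP2 (0.0579), ZNF780A (0.0631) and ZNF41 (0.0734), beside a deviation of FOS from its own mean of 0.243. For JUN they were FOXO3 (0.0634), SOX14 (0.101) and FAM50B (0.103), and for ATF3 the nearest were NAA80 (0.0946) and STN1 (0.0964). The deviations of JUN and ATF3 were 0.302 and 0.296. ATF3 read 33.3 CPM in the first NAC library, the one with fibroblast markers, and 16.5 to 23.6 CPM in the others. For EGR1, whose own deviation was larger at 0.506, CAPN13 (0.188), HTATSF1P2 (0.226) and ABCA1 (0.272) came nearest. All these genes are the nearest of 12271 over 8 libraries, and how near the best of so many would come by chance was not tested.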

How the data were processed

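Bulk RNA from 8 libraries was analysed. Raw counts per gene were deposited by the authors without normalization. Per the submitters' processing notes and the methods, reads were checked with FastQC 0.11.9, trimmed, aligned to hg38 with HISAT2 and counted with featureCounts at its defaults, which ignore strand and leave out reads matching several places or genes. The annotation used for counting is not given in the sources used here. Members and lists were chosen with earlier results of these data known.

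Counts were scaled by TMM and tested with edgeR 4.0.16 (R 4.3.3), quasi-likelihood, 1 term per group, all 8 libraries, after filterByExpr with a minimum count of 10, with Benjamini-Hochberg adjustment over 15916 genes and a threshold of 0.05. Replicates differed by more than counting error (chi-square per degree of freedom 9.53 to 30.7). Named companion genes are, for each list and main comparison, up to 3 with the largest absolute log2 fold change among those called without overlap of the groups. Loci, lengths and overlaps came from GENCODE on GRCh38, promoters from RefSeq. Levels per kb divide CPM by 1 transcript's length. Likeness used genes averaging at least 1 log2 CPM (2 counts added), naming 3 genes per member, of which 1 is not reported here. The test was run on simulated data first. Alternatives were DESeq2 1.42.0, other scalings and filters, another call rule, fits of the compared groups, a replicate block, removal of a length and GC trend (mgcv 1.9.3) and leaving out each library. The planned comparisons within WT were not run, since those 4 libraries were not analysed here.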

Additional observations from a re-analysis of the deposited data

How the results depend on the processing

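Of 694 alternative values for the members in the 3 main comparisons and for those named in the other 3, 595 kept their direction and their side of the threshold, 60 passed it anew, 27 no longer passed it and 12 changed sign. The number of members called in KO against WT was 0 as reported, 3 with DESeq2, 4 without the count filter, 4 in the fit of the compared libraries, 1 by fold change and unadjusted p, and 0 to 4 with a library left out (312 genes called as reported, 64 to 1311 with a library left out, 172 to 1252 otherwise). For NAC against KO it was 4 as reported, 1 by fold change and unadjusted p, 1 with the length and GC trend removed, 1 with trend and block together, and 3 to 6 with a library left out (7100 genes as reported, 1435 by fold change and unadjusted p). For 5% O2 against KO it was 0, 2 with DESeq2, 2 without the filter, 2 in the fit of the compared libraries and 0 to 2 with a library left out (1243 genes as reported, 36 to 2763 with a library left out, 229 to 3009 otherwise). For NAC against 5% O2 it was 3, 5 without the filter, 1 by fold change and unadjusted p, 1 with the trend removed, 1 with trend and block, and 1 to 3 with a library left out (4635 genes, 703 by fold change, 1354 without the second 5% O2 library). Against WT, 5% O2 gave 0, 3 with DESeq2, without the filter and in the fit of the compared libraries, and 0 to 3 with a library left out (520 genes, 99 to 1586). NAC against WT gave 2, 1 by fold change, in the fit of the compared libraries and with the trend removed, with or without the block, and 0 to 3 with a library left out. The count for NAC against WT also reached 3 under other settings, DESeq2 among them. In that comparison 6076 genes were called as reported, 6164 with DESeq2, 987 by fold change and 2999 with the trend removed. With 1 library left out, FOSL2 in KO against WT lay between -0.22 and 0.11 (also 0.05) and JUNB between -0.22 and 0.03. In NAC against KO, FOS lay between -0.12 and 0.09 (also 0.03) and JUNB between -0.32 and 0.39, its lowest value without the first NAC library. In 5% O2 against KO, JUNB lay between -0.10 and 0.17 (also -0.03) and ATF3 between -0.17 and 0.12 (also 0.07), and JUN was 0.07 with the trend removed, with or without the block. A replicate block gave 1 member called in KO against WT, IER2, where 2.3% of all genes were called. Replicate numbers did not pair the libraries, with correlations of -0.03 to 0.08 between groups. The cause of these changes was not tested. Depth limits FOSB.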
